A study of Homo sapiens with 6 samples.

Results

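BASP1, GAP43, MARCKS and MARCKSL1 are the 4 genes of a family of proteins that coat the inner face of the plasma membrane, and their expression was followed in VCaP cells with and without knockdown of the arginine methyltransferase PRMT5. Every probe set whose annotation named exactly 1 of these symbols was taken, which gave 11 probe sets of the 41091 with a single symbol, and 4 genes of 19775. BASP1 was chosen because an earlier reading of these arrays placed it near the top of the differences from the control hairpin, and the other 3 genes were added as its relatives. The differences of all 4 genes from control are therefore described without a test. Only the difference between both PRMT5 hairpins, which the choice did not use, was tested for them.

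VCaP, a long-established line of human prostate cancer cells, has the TMPRSS2-ERG fusion. The lines held a short hairpin RNA (shRNA): a non-targeting control (NTC shRNA), PRMT5 shRNA 1 or PRMT5 shRNA 2, with 2 arrays per group and 6 in all. Every culture, control included, received doxycycline, the drug that switches on inducible hairpins, at 100 ng/ml for 3 days, so no group is free of inducer or of a hairpin. Whether replicates came from separate cultures is not stated in the labels, so each p-value speaks only to the spread among the arrays at hand, and that spread may be technical. The arrays measured total RNA of whole cultures, in which fewer expressing cells and less RNA per cell cannot be told apart.

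These proteins are grouped by their chemistry rather than by one shared fold. Each carries a fatty acid near its amino end and a stretch of basic residues that binds the lipid PIP2, calmodulin or both, and protein kinase C phosphorylates this stretch and loosens it from the membrane. In growing axons GAP43 and BASP1 are among the most abundant proteins of the growth cone, where they act on PIP2 and the actin beneath the membrane. MARCKS and MARCKSL1 share sequence with each other and are found in many tissues. BASP1 is also known in the nucleus, as a corepressor that works with WT1 and prohibitin, and as an antagonist of MYC-driven transformation.

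The sequences before the 4 genes' starts are shown so that a reader can see what kind of promoter each gene has beside how it differed between the groups. Each line is the 250 bases upstream of the start, from RefSeq on GRCh38.p14, written 5′ to 3′ on the strand of the gene. Capitals mark matches, on either strand, to the GC box letters GGGCGG, the box named CCAAT, the TATA box letters TATAAA and the TATA repeat written as TATATA. They also mark the MYC-type E-box with letters CACGTG, the bHLH-type E-box with letters CAGCTG, and the ETS core with letters CCGGAA. Overlapping matches run together.
BASP1 (chr5:17216573-17216822, plus strand): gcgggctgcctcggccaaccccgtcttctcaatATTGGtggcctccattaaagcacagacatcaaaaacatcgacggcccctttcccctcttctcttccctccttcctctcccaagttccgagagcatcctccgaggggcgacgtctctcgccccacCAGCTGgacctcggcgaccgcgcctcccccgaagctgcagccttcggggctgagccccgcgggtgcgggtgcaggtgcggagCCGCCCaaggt
GAP43 (chr3:115623260-115623509, plus strand): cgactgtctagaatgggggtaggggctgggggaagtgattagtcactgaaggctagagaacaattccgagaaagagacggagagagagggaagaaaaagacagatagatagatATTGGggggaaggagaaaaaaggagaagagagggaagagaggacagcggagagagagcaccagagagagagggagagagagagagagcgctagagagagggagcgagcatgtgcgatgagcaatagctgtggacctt
MARCKS (chr6:113857095-113857344, plus strand): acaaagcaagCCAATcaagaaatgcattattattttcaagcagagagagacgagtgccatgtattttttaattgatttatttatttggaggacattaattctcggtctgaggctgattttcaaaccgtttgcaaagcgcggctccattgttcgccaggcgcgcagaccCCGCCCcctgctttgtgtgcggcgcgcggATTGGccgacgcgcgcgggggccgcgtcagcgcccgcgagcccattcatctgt
MARCKSL1 (chr1:32336234-32336483, minus strand): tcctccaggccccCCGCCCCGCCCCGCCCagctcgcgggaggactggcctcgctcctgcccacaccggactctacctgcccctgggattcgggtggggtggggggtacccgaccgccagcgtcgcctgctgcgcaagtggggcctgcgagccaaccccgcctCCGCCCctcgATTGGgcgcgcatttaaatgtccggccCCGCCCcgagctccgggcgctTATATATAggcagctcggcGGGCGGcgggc
The BASP1 window was 65.6% G and C and held 21 CpG dinucleotides, against a median of 11 CpG over 34943 such windows, of which 69.8% held fewer. It held 1 GC box starting at position -11 from the gene's start, 1 CCAAT box at -217 and 1 bHLH-type E-box at -93. The MARCKS window held 23 CpG, a GC box at -82 and 2 CCAAT boxes. MARCKSL1 had the densest window, with 28 CpG, 74% G and C, 6 GC boxes and 2 overlapping TATA repeats. GAP43 was the poorest, with 7 CpG and no GC box, while 41.2% of windows held fewer CpG still. GC boxes stood in 42.5% of all windows, CCAAT boxes in 32%, the bHLH-type E-box in 14% and the TATA repeat in 3.74%. None of the 4 windows matched the TATA box, the MYC-type E-box or the ETS core, which stood in 10.8%, 6.32% and 14.5% of all windows. A match is a run of letters and not a measured binding site.

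Intensities were deposited on a linear scale, already brought to an equal trimmed mean, with array medians of 14.8 to 16.4. Probe sets at or above their array's median on at least 2 arrays were kept, which left 12413 genes. PRMT5 itself checked the labels, with intensities of 809.8 and 880.5 in the NTC shRNA arrays, 135.6 and 133.8 with PRMT5 shRNA 1, and 291.2 and 321.0 with PRMT5 shRNA 2. Its means were thus 15.9% and 36.2% of control, so PRMT5 shRNA 1 lowered its target further, by a difference between hairpins of 1.09 ± 0.08 on the log2 scale (limma, adjusted p = 8.0e-05). Differences are given throughout on the scale of log2(intensity + 16) with limma's standard error, which understates changes of dim genes. The line matched its label: the prostate markers KLK2, KLK3, TMPRSS2 and ERG had mean intensities of 4702, 1178, 1225 and 1407 in the control. Among the fibroblast and immune markers COL1A2, COL3A1, DCN, PTPRC, CD14 and PECAM1 stayed below the filter, while the remaining 2 of 8, LYZ and COL1A1, were measured. The summed intensity of that list was 98.5 to 99.7 in the control, 185.9 to 196.8 with PRMT5 shRNA 1 and 141.3 to 151.7 with PRMT5 shRNA 2. It was higher with knockdown as BASP1 was, with LYZ its only called gene (27.9 to 126.7 and 69.95), and its part in the results was not tested.

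BASP1 went from a faint signal to a clear one with both PRMT5 hairpins. Its probe set 202391_at read 27.9 and 29.0 in the NTC shRNA arrays, 531.9 and 514.5 with PRMT5 shRNA 1, and 408.7 and 359.7 with PRMT5 shRNA 2. The groups were far apart, and all 6 arrays were above their array median, so the gene was not admitted by the knockdown arrays alone. The ratio of mean intensities to control was 18.4 with PRMT5 shRNA 1 (523 ± 12.3 against 28.4 ± 0.78, SD, n = 2) and 13.5 with PRMT5 shRNA 2 (384 ± 34.6). On the log2 scale the difference from control was 3.60 ± 0.09 and 3.17 ± 0.09, and 3.38 ± 0.08 for the mean of both.

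**Figure D1:**
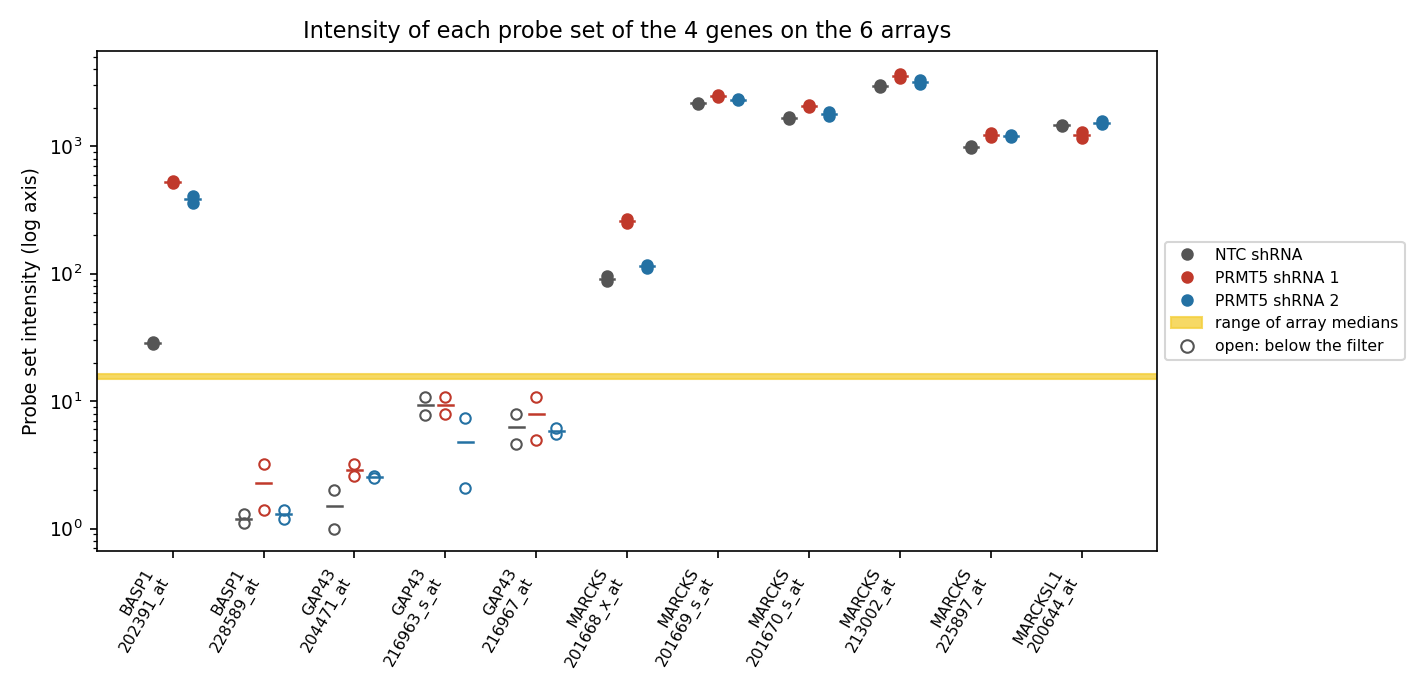
Intensity (log axis) of the probe sets of BASP1, GAP43, MARCKS and MARCKSL1 on each of the 6 arrays, by group, with each point 1 array, short lines the group means and open points below the filter. BASP1 202391_at stands at 27.9 and 29.0 in the control and between 359.7 and 531.9 with the PRMT5 hairpins, whereas the GAP43 probe sets stay near the bottom of the scale in every group.

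In the order of the averaged difference from control over 12413 genes BASP1 was number 2. Just above it was XK, which encodes a membrane protein of the Kell blood group complex, at 3.48 ± 0.07. LAMA2, a laminin chain, followed at 2.96 ± 0.10 and the noncoding RNA SPRY4-IT1 at 2.89 ± 0.11. LAMA2 passed the filter through its knockdown arrays only. With PRMT5 shRNA 1 alone BASP1 was first, ahead of TGFB2 at 3.40 ± 0.09, and with PRMT5 shRNA 2 alone it was again second to XK (3.62 ± 0.08), with LAMA2 behind it at 3.12 ± 0.12. Both hairpins were set against the same 2 control arrays. The size of the difference depended on the pseudocount: the averaged value was 3.93 with a pseudocount of 1 and 2.47 with 64.

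The hairpins differed in how high BASP1 stood. The intensity with PRMT5 shRNA 2 was 0.734 of that with PRMT5 shRNA 1, and no array of either group overlapped the other. The difference was -0.43 ± 0.09 (limma, adjusted p = 0.00634). A larger difference between hairpins, in either direction, was seen in 8.60% of genes. The hairpin with the lower PRMT5 intensity thus had the higher BASP1 intensity, an order over 2 hairpins only.

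A second probe set annotated to BASP1, 228589_at, read 1.3 and 1.1 in the control, 1.4 and 3.2 with PRMT5 shRNA 1, and 1.2 and 1.4 with PRMT5 shRNA 2. It lay below the filter in all 6 arrays and did not show the difference seen with 202391_at, and where along the transcript either one lies is not given in the files. BASP1-AS1, a noncoding RNA whose probe set was looked up after its values were seen, read 6.7 and 4.2 in the control, 5.6 and 4.6, and 6.7 and 4.4, all below the filter. The large difference in BASP1 therefore rests on 1 probe set.

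**Figure D2:**
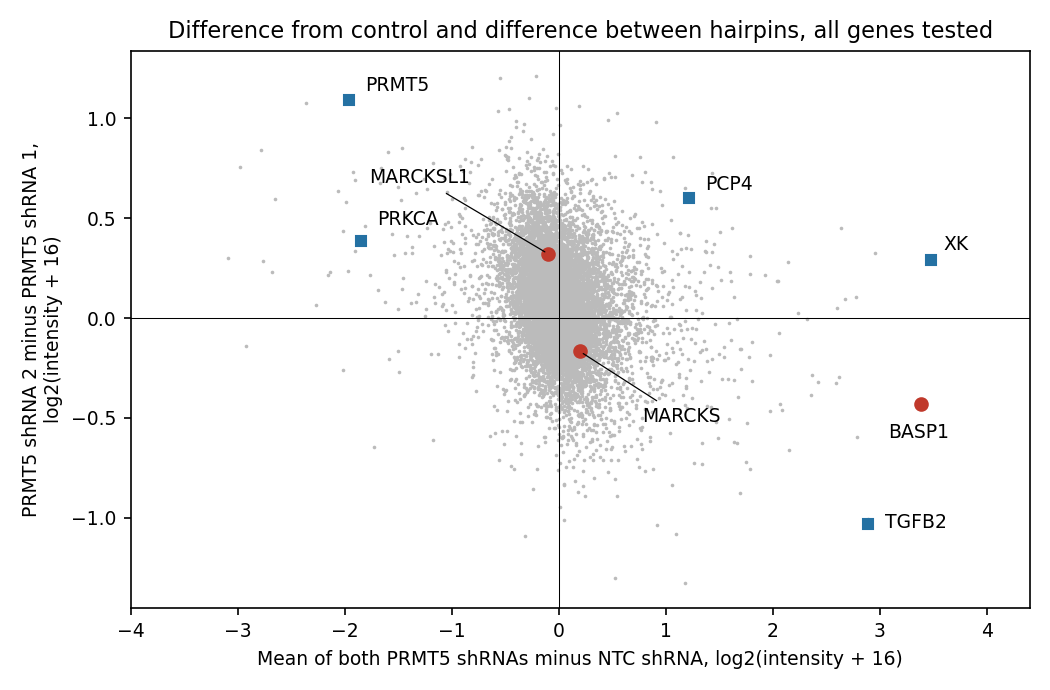
Each grey point is 1 of 12413 genes, with the averaged difference of both PRMT5 hairpins from NTC shRNA on the x axis and the difference between the hairpins on the y axis, both in log2(intensity + 16). BASP1 lies at 3.38 and -0.43, far to the right with XK (3.48 and 0.29) and TGFB2 (2.89 and -1.03), while MARCKS (0.19 and -0.17) and MARCKSL1 (-0.10 and 0.32) lie within the main cloud.

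GAP43, the growth cone protein of the family, was not measured above the filter in VCaP cells of any group. Probe set 204471_at read 1.0 and 2.0 in the control, 2.6 and 3.2 with PRMT5 shRNA 1, and 2.6 and 2.5 with PRMT5 shRNA 2. Probe set 216963_s_at read 7.8 and 10.7, then 10.7 and 8.0, then 7.4 and 2.1. The third, 216967_at, read 8.0 and 4.6, then 10.8 and 5.0, then 5.5 and 6.2. Every reading stood under the median of its array. Knockdown readings were above the control on 204471_at, overlapped it on 216967_at, and on 216963_s_at lay below it with PRMT5 shRNA 2 only. With no filter the difference between hairpins was -0.30 ± 0.13 (limma, adjusted p = 0.195 over 19775 genes), on readings that are near background.

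MARCKS was already bright in control cells and stood a little higher with the PRMT5 hairpins. Its brightest probe set, 213002_at, read 3008.8 and 2891.4 in the control, 3443.8 and 3719.2 with PRMT5 shRNA 1, and 3288.8 and 3088.3 with PRMT5 shRNA 2. All 4 knockdown arrays lay above both control arrays. The ratio of means to control was 1.21 with PRMT5 shRNA 1 and 1.08 with PRMT5 shRNA 2, and the log2 differences were 0.28 ± 0.06 and 0.11 ± 0.06. This is a small displacement, since 37.9% of all genes had a larger averaged difference in either direction than the 0.19 ± 0.05 of MARCKS.

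The 5 probe sets of MARCKS agreed in direction but not in size. On 201669_s_at the readings were 2179.2 and 2157.6, then 2430.0 and 2513.3, then 2344.9 and 2293.5. On 201670_s_at they were 1695.5 and 1633.3, then 2111.5 and 2047.7, then 1862.2 and 1733.0. On 225897_at they were 995.6 and 972.3, then 1176.3 and 1264.3, then 1175.7 and 1229.7. In these 3, as in 213002_at, the knockdown arrays lay above the control arrays by differences of 0.19 to 0.32 with PRMT5 shRNA 1 and of 0.10 to 0.29 with PRMT5 shRNA 2.

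The probe set 201668_x_at stood apart from the other 4. It read 95.3 and 88.0 in the control, 251.5 and 266.7 with PRMT5 shRNA 1, and 117.2 and 110.6 with PRMT5 shRNA 2. Its mean with PRMT5 shRNA 1 was 2.83 times that of the control, against 1.24 times with PRMT5 shRNA 2. The difference between hairpins was -1.08 ± 0.09 on this probe set (limma over 28644 probe sets, adjusted p = 1.0e-04). It was -0.21 ± 0.06 on 201670_s_at (adjusted p = 0.0230), -0.09 on 201669_s_at (adjusted p = 0.212) and -0.02 on 225897_at (adjusted p = 0.837). Thus 2 of the 5 were lower with PRMT5 shRNA 2, where 25.8% of all probe sets were called and 12.7% called lower. On the gene's brightest probe set it was -0.17 ± 0.06 (limma, adjusted p = 0.0511), and 46.3% of genes had a larger difference. The mean over the 5 probe sets gave -0.31 (adjusted p = 0.00333). The call for MARCKS between hairpins therefore turns on the choice of probe set, and probe sets of the _x_at kind can bind transcripts of several genes. RNA quality also differed between the groups: the 3′ over 5′ ratio for ACTB was 4.73 ± 0.209 in control arrays (SD, n = 2), 3.69 ± 0.279 for the first hairpin and 5.36 ± 0.511 for the second. The same ratio of GAPDH was 1.29 ± 0.0531, 1.22 ± 0.0177 and 1.22 ± 0.0073. The part of RNA quality in the MARCKS differences was not tested.

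**Figure D3:**
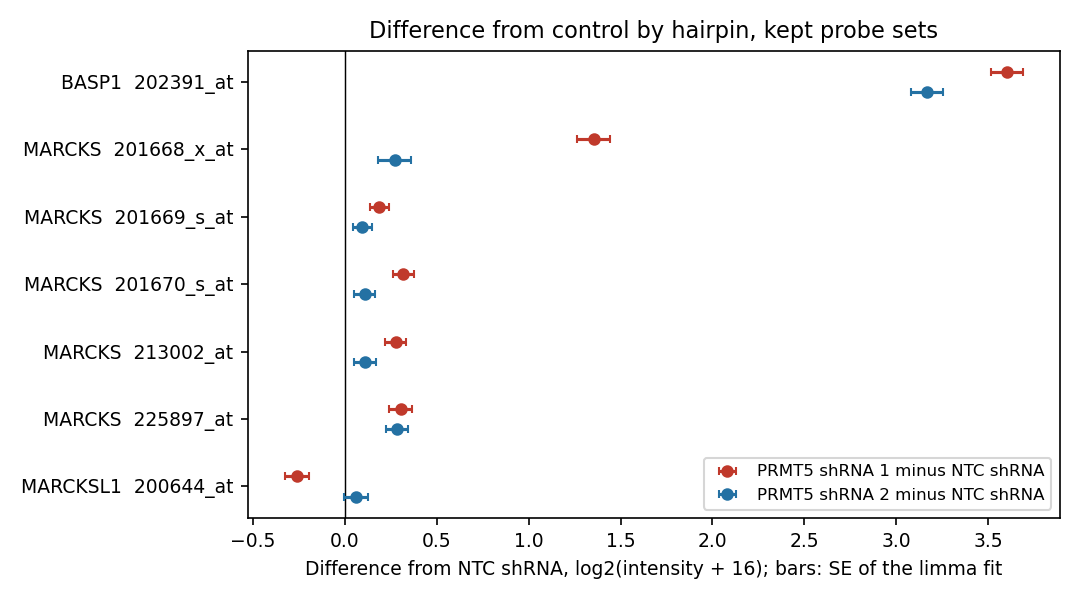
Log2 differences with standard errors for the 7 probe sets of BASP1, MARCKS and MARCKSL1 that passed the filter, for each PRMT5 hairpin against NTC shRNA. The 5 MARCKS probe sets lie between 0.19 and 1.35 with PRMT5 shRNA 1, where 201668_x_at is the high one, and MARCKSL1 lies below 0 with PRMT5 shRNA 1 only.

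MARCKSL1, the smaller relative of MARCKS, lay lower with PRMT5 shRNA 1 rather than higher. Its single probe set, 200644_at, read 1477.0 and 1444.3 in the control, 1153.5 and 1286.4 with PRMT5 shRNA 1, and 1481.2 and 1571.8 with PRMT5 shRNA 2. Both arrays of PRMT5 shRNA 1 lay below the control, and both of PRMT5 shRNA 2 lay above it. The ratio of means to control was 0.835 and 1.04, with log2 differences of -0.26 ± 0.06 and 0.06 ± 0.06. MARCKSL1 was higher with PRMT5 shRNA 2 than with PRMT5 shRNA 1 by 0.32 ± 0.06 (limma, adjusted p = 0.00611), the opposite direction to BASP1, and 18.5% of genes had a larger difference. The 3′ over 5′ ratio of ACTB had the same order over the groups as MARCKSL1 (3.69, 4.73 and 5.36 for PRMT5 shRNA 1, NTC shRNA and PRMT5 shRNA 2), and its part in this result was not tested. Without PRMT5 shRNA 1 replicate 1 this difference was 0.24 and missed the threshold (adjusted p = 0.0523).

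All 4 knockdown arrays lay above both control arrays in 6 of the 7 probe sets that passed the filter, beside 16.5% of all probe sets, and below them in 0, beside 19.7%. Of those 6, 5 belong to the single gene MARCKS, and since BASP1 was chosen on this comparison nothing is read from the count. Between hairpins 25.7% of all genes were called. Of the 3 members that passed the filter 1 was higher with PRMT5 shRNA 2 (MARCKSL1; 18.3% of all genes), 1 was lower (BASP1; 7.38%) and MARCKS did not pass. The median of all genes in that comparison was 0.058, so MARCKSL1 stood above and BASP1 below that median.

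The order of levels cannot be compared between the 4 genes, because intensities of different probe sets are not on one scale. Within each gene the order of groups was NTC shRNA, PRMT5 shRNA 2, PRMT5 shRNA 1 for BASP1 and for MARCKS on 213002_at, with the last pair of MARCKS not past the threshold. For MARCKSL1 it was PRMT5 shRNA 1, NTC shRNA, PRMT5 shRNA 2, where the control and PRMT5 shRNA 2 means, 1461 ± 23.1 and 1526 ± 64.1 (SD, n = 2), differed by about the spread of the latter.

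The genes whose pattern was most like that of BASP1 were found by subtracting each gene's NTC shRNA mean and taking the root mean square difference from BASP1 over the 6 arrays. XK was closest, at 0.31 on the log2 scale, followed by the secreted growth factor TGFB2 (0.48), SPRY4-IT1 (0.48), LAMA2 (0.49) and SPRY4, an inhibitor of growth factor signalling (0.49), where the median of all genes was 2.79. The measure favours genes with a large difference from control, so these 5 are mostly those at the top of that order. SPRY4-IT1 derives from within SPRY4, so the pair is not a pair of separate loci. XK read 58.9 and 54.1 in the control, 748.5 and 679.1 with PRMT5 shRNA 1, and 891.5 and 859.6 with PRMT5 shRNA 2. In XK the hairpin order was thus opposite to BASP1 (0.29 ± 0.08). That call was lost without PRMT5 shRNA 1 replicate 2 (0.22) or either PRMT5 shRNA 2 array (0.26 and 0.32). TGFB2 read 44.9 and 39.0, then 606.6 and 586.0, then 271.2 and 296.7, which is the hairpin order of BASP1 with a wider gap (-1.03 ± 0.09). LAMA2 read 3.0 and 3.1 in the control and 112.9 to 167.8 with knockdown, so its control level is near background. It passed the filter through the 4 knockdown arrays only, so its place here is no support for a rise. MARCKS and MARCKSL1 varied by less than 1 on the log2 scale between groups, and no like genes were sought for them.

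**Figure D4:**
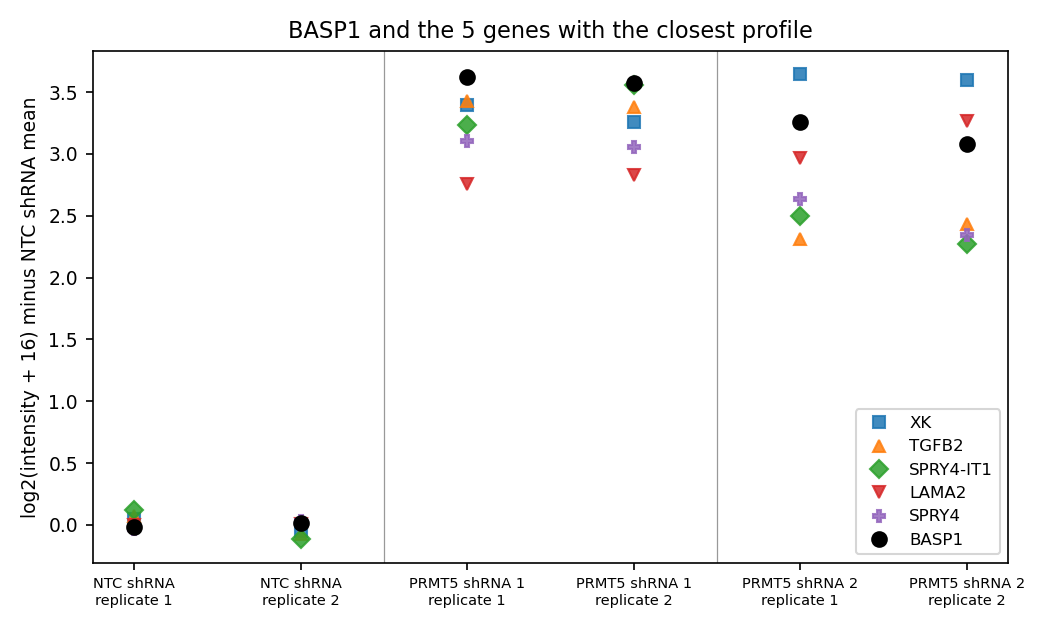
BASP1 and the 5 genes with the most similar pattern, each as log2(intensity + 16) minus its own NTC shRNA mean, over the 6 arrays. All lie near 0 in the control and far above it with the PRMT5 hairpins, and TGFB2 (-1.03) and SPRY4-IT1 (-1.01) are lower with PRMT5 shRNA 2 than with PRMT5 shRNA 1 by more than BASP1 (-0.43).

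Genes next to the 4 family members on the chromosome were examined in the order of the RefSeq gene table. Of 24 neighbours, 11 were measured. In the averaged comparison with control 2 were called higher, LCK and BSDC1, and 1 lower, FRK, where 32.4% of all genes were called, 15.4% higher and 17% lower. None of the 3 measured neighbours of BASP1 passed: ZNF622 was at -0.07, RETREG1 at -0.10 and the unconventional myosin MYO10 at -0.14. On the other side of BASP1 no gene had a probe set of its own. Beside GAP43, ZBTB20 (-0.08) and LSAMP (-0.02) did not pass.

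MARCKS and MARCKSL1 each lie beside a class I histone deacetylase and a Src-type kinase in that table. HDAC2, next to MARCKS, was at 0.02 and HDAC1, next to MARCKSL1, at -0.03, and neither passed, but with the mean over its kept probe sets HDAC2 was at -0.18 and passed (limma, adjusted p = 0.0181). FRK, the kinase on the MARCKS side, fell from 528 to 426 and 466 (-0.24 ± 0.07, limma, adjusted p = 0.0207), a call lost without NTC shRNA replicate 1 (-0.21), NTC shRNA replicate 2 (-0.27) or PRMT5 shRNA 1 replicate 2 (-0.19), and with the mean over its probe sets (-0.15, adjusted p = 0.101). LCK, the lymphocyte kinase beside MARCKSL1, read 5.65 on average in the control, below the array medians, and 16.4 and 14.7 with the hairpins, near them. It passed the filter through 2 knockdown arrays only, so its call is no support for a rise. BSDC1 beside MARCKSL1 rose by 0.22 ± 0.06 (adjusted p = 0.0166), which was lost without NTC shRNA replicate 1 (0.15, adjusted p = 0.211) or PRMT5 shRNA 1 replicate 1 (0.20, adjusted p = 0.0511). By hairpin BSDC1 was at 0.087 with PRMT5 shRNA 1 (adjusted p = 0.350) and at 0.36 with PRMT5 shRNA 2. FRK was at -0.30 and, with PRMT5 shRNA 2, at -0.17 (adjusted p = 0.142). FAM229B beside MARCKS was at 0.21 and did not pass. Between hairpins BSDC1 was higher with PRMT5 shRNA 2 by 0.27 ± 0.07 (adjusted p = 0.0177), as was MYO10 by 0.41 ± 0.07 (adjusted p = 0.00375). The BSDC1 call was lost without replicate 2 of PRMT5 shRNA 1 (0.23) and without replicate 2 of PRMT5 shRNA 2 (0.28). The mean over the MYO10 probe sets gave 0.06, so that call depends on the probe set.

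The enzymes and partners through which these proteins are known to act were taken as lists of 98 genes, of which 82 were measured. In the averaged comparison with control 14 were called higher, 15 lower and 53 did not pass, with a median of 0.014 beside -0.015 for all genes. The counts lie close to the shares of all genes called, 15.4% higher and 17% lower, so the lists as a whole did not stand out. The largest differences in either direction were those of PRKCA and PCP4.

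Protein kinase C, the family that phosphorylates MARCKS and GAP43, held the largest drop. PRKCA, the classical alpha isoform, read 622.6 and 583.9 in the control, 131.7 and 136.6 with PRMT5 shRNA 1, and 161.6 and 200.5 with PRMT5 shRNA 2. No knockdown array came near the control, the difference was -1.85 ± 0.09 (limma, adjusted p = 5.8e-08), and all 3 of its kept probe sets fell, by values from -1.85 to -1.35. PRKCH fell from 575 to 405 and 533 (-0.30 ± 0.06, adjusted p = 0.00225), but with PRMT5 shRNA 2 alone it was at -0.11 and did not pass (adjusted p = 0.277). The other 4 of 6 measured isoforms did not pass, and the list's median was -0.0053. Between hairpins 4 of the 6 were higher with PRMT5 shRNA 2 (18.3% of all genes), among them PRKCA by 0.39 ± 0.10, PRKCD by 0.50 ± 0.09 and PRKCH by 0.38 ± 0.06 (adjusted p = 0.0177, 0.00439 and 0.00290). The PRKCA value was no longer past the threshold without PRMT5 shRNA 1 replicate 1 (0.36), without its replicate 2 (0.41) or without PRMT5 shRNA 2 replicate 2 (0.24). The mean over the PRKCH probe sets gave 0.18, which also missed it.

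Among small proteins that, like GAP43, bind calmodulin through an IQ motif, PCP4 rose. It read 234.5 and 253.1 in the control, 454.1 and 492.8 with PRMT5 shRNA 1, and 673.3 and 780.4 with PRMT5 shRNA 2, so the 3 groups did not overlap. The difference was 1.21 ± 0.07 (limma, adjusted p = 5.1e-07), and PRMT5 shRNA 2 was higher than PRMT5 shRNA 1 by 0.60 ± 0.09 (adjusted p = 0.00138), opposite to the order of BASP1. PCP4L1, its close relative, rose from 69.7 to 114 and 118 (0.62 ± 0.08, adjusted p = 0.000244). The remaining measured gene of that list, NRGN (neurogranin), did not pass.

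**Figure D5:**
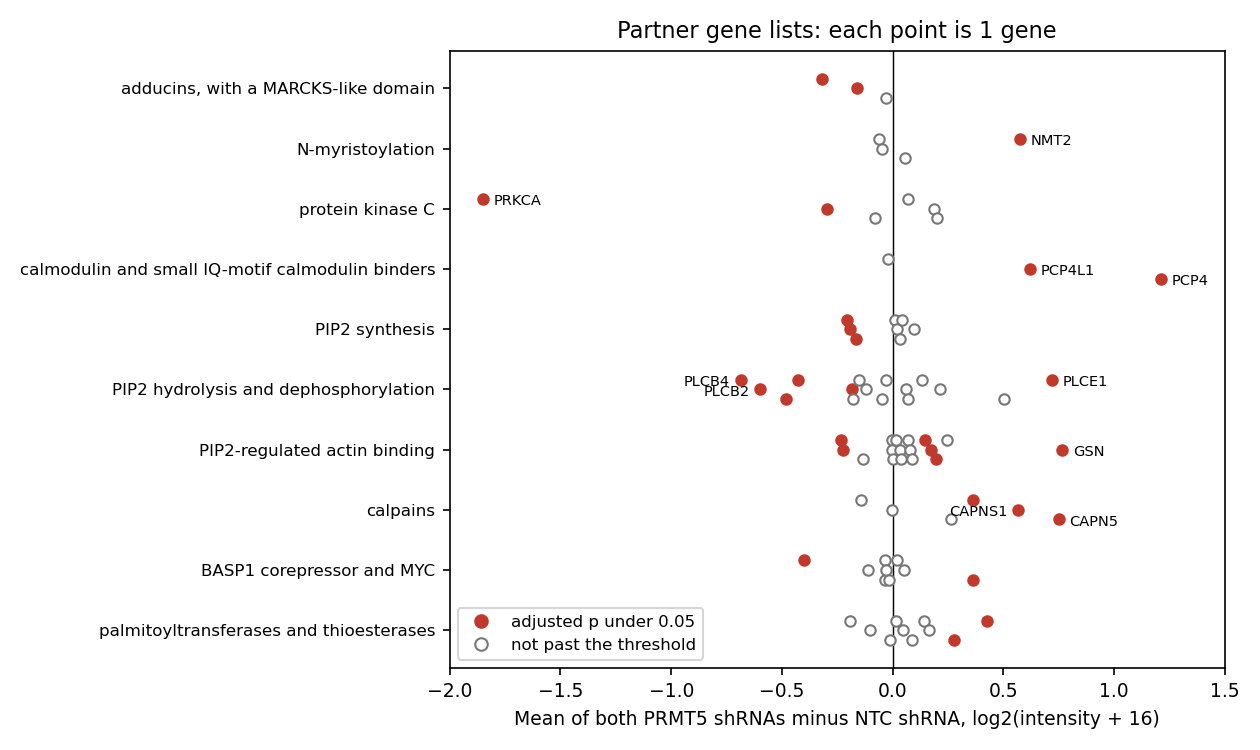
Averaged difference of both PRMT5 hairpins from NTC shRNA for each measured gene of the 10 partner lists, in log2(intensity + 16), with filled points for genes past the threshold. PRKCA lies far to the left at -1.85 and PCP4 far to the right at 1.21, and most genes of the lipid and actin lists lie near 0.

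The next lists hold the genes that place and remove the membrane anchors, and their counts are read beside the 15.4% of all genes called higher and 17% lower. Of 4 genes of N-myristoylation, the step that anchors BASP1, MARCKS and MARCKSL1, 1 rose, 0 fell and 3 did not pass (median 0.0045). It was the myristoyltransferase NMT2, from 526 to 735 and 859 (0.58 ± 0.09, limma, adjusted p = 0.000596). NMT2 read 0.29 and missed the threshold (adjusted p = 0.0774) when _x_at and _s_at probe sets were left out. Of 10 palmitoyltransferases and thioesterases, enzymes of the GAP43 anchor, 2 rose and 0 fell (median 0.068), namely ZDHHC20 (0.43 ± 0.09, adjusted p = 0.00574) and ZDHHC5 (0.28 ± 0.08, adjusted p = 0.0246). Both were lost without NTC shRNA replicate 1 (adjusted p = 0.0539 and 0.119), and ZDHHC5 also without NTC shRNA replicate 2 or PRMT5 shRNA 2 replicate 1. With PRMT5 shRNA 2 alone ZDHHC20 was at 0.29 and ZDHHC5 at 0.25, and neither passed (limma, adjusted p = 0.0845 and 0.0833). The adducins, which carry a MARCKS-like basic domain at their end and cap actin filaments, had 2 of 3 called lower (median -0.16). ADD2 fell by 0.32 on the log2 scale (SE 0.06, adjusted p = 0.00226). ADD3 was at -0.16 ± 0.05 (adjusted p = 0.0311), a call lost when any 1 array other than PRMT5 shRNA 2 replicate 2 was left out (adjusted p 0.0529 to 0.194) and with the mean over its probe sets (-0.062, adjusted p = 0.351). By hairpin ADD3 was at -0.31 with PRMT5 shRNA 1 and at -0.018 with PRMT5 shRNA 2 (adjusted p = 0.861).

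The PIP2 lists concern the lipid that these proteins shield, and their counts too are read beside the 15.4% of all genes called higher and 17% lower. Among 8 genes of PIP2 synthesis 0 were called higher and 3 lower (median 0.015), PI4KA, PIP5K1A and PIP4K2B, at -0.19, -0.17 and -0.21, and all 3 calls were lost when either control array was left out. By hairpin PI4KA was at -0.41 with PRMT5 shRNA 1 and at 0.028 with PRMT5 shRNA 2, whereas PIP5K1A was at -0.092 and -0.24 and PIP4K2B at -0.17 and -0.24. Among 16 genes of its hydrolysis and dephosphorylation 1 was called higher and 5 lower (median -0.084). The phospholipase PLCB4 fell from 877 to 428 and 676 (-0.69 ± 0.06, adjusted p = 5.2e-06 by limma), and PLCE1 rose from 20.8 to 39.9 and 50.1 (0.72 ± 0.10, adjusted p = 0.000254). PLCB2, also called lower, had means of 26.4, 9.75 and 14.4 and passed the filter through the 2 control arrays only, so its call is no support for a fall. PLCB4 fell further with PRMT5 shRNA 1, the hairpins differing by 0.64 ± 0.06 (adjusted p = 0.000254).

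Of 17 actin-binding proteins regulated by PIP2, 4 were called higher and 2 lower (median 0.039), where 15.4% and 17% of all genes were. Gelsolin (GSN), which severs actin filaments, read 15.6 and 12.6 in the control, 37.7 and 35.0 with PRMT5 shRNA 1, and 36.4 and 31.6 with PRMT5 shRNA 2. It passed the filter through the 4 knockdown arrays only, so its call is no support for a rise. The focal adhesion proteins VCL and TLN1 were at -0.23 each (limma, adjusted p = 0.00623 and 0.0268), calls that neither gene kept without NTC shRNA replicate 1 or without NTC shRNA replicate 2. For TLN1 the direction turned to 0.015 without _x_at and _s_at probe sets, and with PRMT5 shRNA 2 it was at -0.067 (adjusted p = 0.610). VCL with PRMT5 shRNA 2 was at -0.14 and did not pass either (adjusted p = 0.121). Of 6 calpain genes, whose proteases are reported to cut MARCKS, 3 rose and 0 fell (median 0.32), beside the same shares of all genes. CAPN5 rose from 75.4 to 141 and 134 (0.75 ± 0.08, limma, adjusted p = 3.6e-05), the regulatory subunit CAPNS1 from 1612 to 2444 and 2350 (0.57 ± 0.07, adjusted p = 1.0e-04), and the calpain inhibitor CAST from 1054 to 1316 and 1409 (0.37 ± 0.05, adjusted p = 0.000259). The list thus holds a protease, a subunit and an inhibitor among the genes that rose. Its other members CAPN1 (0.27), CAPN2 (-0.14) and CAPN7 did not pass in the averaged comparison. By hairpin CAPN1 was at 0.022 with PRMT5 shRNA 1 and at 0.51 with PRMT5 shRNA 2 (limma, adjusted p = 0.892 and 0.00747). CAPN2 was at -0.48 and 0.19 (adjusted p = 0.000789 and 0.102).

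Of 9 measured genes of the BASP1 corepressor and of MYC, 1 rose, 1 fell and 7 did not pass (median -0.032), where 32.4% of all genes were called. MYC itself was at -0.03, and WT1, the transcription factor that BASP1 was first linked to, lay below the filter. SMARCA4, the motor of a chromatin remodelling complex, fell from 450 to 344 and 330 (-0.40 ± 0.07, limma, adjusted p = 0.00163). Without _x_at and _s_at probe sets, however, SMARCA4 was at -0.18 and missed the threshold. MXI1, a MAX partner that opposes MYC, rose from 1100 to 1353 and 1491 (0.36 ± 0.06, adjusted p = 0.00112).

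BASP1 and GAP43 are best known from neurons, so neuronal and neuroendocrine markers were read beside them. Of 10 measured genes 0 rose and 3 fell in the averaged comparison (15.4% and 17% of all genes): NCAM1 from 68.6 to 34.6 and 50.9 (-0.54 ± 0.10, limma, adjusted p = 0.00241), INSM1 from 729 to 519 and 559 (-0.43 ± 0.06, adjusted p = 0.000209) and NEFL from 970 to 776 and 913 (-0.20 ± 0.06, adjusted p = 0.0250). STMN2, another growth cone protein, lay below the filter. The summed intensity of the list was 5521 to 5535 in the control, 4868 to 4966 with PRMT5 shRNA 1 and 5270 to 5561 with PRMT5 shRNA 2. The summed level was thus lower than control with PRMT5 shRNA 1 and overlapped it with PRMT5 shRNA 2, whereas BASP1 was higher with both. The sum adds probe sets that are not on one scale, and TUBB3 alone read 2584 in the control. With PRMT5 shRNA 2 alone only INSM1 (-0.37) and CHGB passed. CHGB went the other way, from 249 to 352 (0.48 ± 0.10, limma, adjusted p = 0.00468), but read 230 with PRMT5 shRNA 1.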

How the data were processed

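Gene expression was measured on arrays in 6 VCaP samples. The authors deposited linear-scale intensities of probe sets, for which MAS5 is the tool named per the submitters' processing notes. Its version and any detection call are not given in the sources. Trimmed means of the 6 columns were equal, and no further scaling was applied. Of 54675 probe sets, 62 controls were left out. Probe sets were named through the platform annotation where it gave 1 symbol, and the brightest kept one stood for each gene. The fit was made on log2(intensity + 16) by limma 3.58.1 under R 4.3.3 (eBayes with an intensity trend), all 6 arrays in one fit with 3 residual degrees of freedom. P-values are two-sided and Benjamini-Hochberg adjusted over all 12413 genes, or over 28644 probe sets for single probe sets, with a threshold of 0.05. Precision is limited by the number of arrays, and the median replicate standard deviation was 0.08 on the log2 scale. The steps were tested on simulated data.

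The family members, partner lists, marker lists and tests were chosen with earlier results of these data known. Genes named were all members, PRMT5, at most 3 genes past the threshold with the largest difference per partner list and comparison, every measured gene of a list with under 3, the measured chromosome neighbours, the 5 genes most like BASP1 and those next to it in the order. NRGN, MYC, WT1 and the markers were named besides. Alternatives covered the pseudocount, quantile scaling, the filter, the probe set per gene, the variance trend, a replicate block and each array left out.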

Additional observations from a re-analysis of the deposited data

Results flagged for a closer look

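The difference between PRMT5 shRNA 2 and PRMT5 shRNA 1, that is, 2 hairpins under the same contrast with NTC shRNA, passed limma's adjusted threshold for a number of the genes named above. All values are PRMT5 shRNA 2 minus PRMT5 shRNA 1 on the log2 scale, and in this comparison 25.7% of all genes and 25.8% of all probe sets were called.

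Among the family BASP1 differed by -0.43, MARCKSL1 by 0.32, and MARCKS by -1.08 on probe set 201668_x_at and by -0.21 on 201670_s_at. PRMT5 itself differed by 1.09. Of the genes whose pattern was most like BASP1, XK differed by 0.29, TGFB2 by -1.03, SPRY4-IT1 by -1.01 and SPRY4 by -0.59.

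Of the chromosome neighbours, MYO10 differed by 0.41 and BSDC1 by 0.27. Among the kinases, PRKCA differed by 0.39, PRKCD by 0.50 and PRKCH by 0.38. PCP4 differed by 0.60, NMT1 by 0.26 and ADD3 by 0.29. In the PIP2 lists PI4KA differed by 0.44, PLCB4 by 0.64, OCRL by 0.35 and INPP5B by -0.37. Among actin-binding genes CAPZA2 differed by -0.26, PFN1 by -0.22 and TLN1 by 0.34. The calpains CAPN1 and CAPN2 differed by 0.49 and 0.67. HDAC3 differed by 0.40, MAX by 0.23, ZDHHC8 by 0.51 and PPT1 by 0.39. The direction of CAPN1 and TLN1 turned without _x_at and _s_at probe sets (-0.29 and -0.14), and that of MAX with the mean over its probe sets (-0.037). The calls of NMT1, INPP5B, PFN1, MAX, CAPN1 and TLN1 were each lost in several alternatives, and ZDHHC8 passed the filter without the PRMT5 shRNA 1 arrays. HDAC3 (0.34) and CAPZA2 (-0.24) no longer passed once PRMT5 shRNA 1 replicate 1 was set aside. The same held for OCRL (0.29) and ZDHHC8 (0.40) with replicate 2 of that hairpin set aside. ZDHHC8 (0.46) also missed the threshold when PRMT5 shRNA 2 replicate 2 was dropped. Losses for XK, MARCKSL1, BSDC1, MYO10, PRKCA and PRKCH are given above.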

How the results depend on the processing

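Leaving out each array in turn gave 2200 to 4248 genes called in the averaged comparison (4016 with all arrays), 3180 to 5283 for PRMT5 shRNA 1 (4879), 1561 to 2443 for PRMT5 shRNA 2 (2661) and 1333 to 2808 between hairpins (3192). The averaged count was 2200 without NTC shRNA replicate 1 and 2315 without replicate 2. Between hairpins BASP1 kept its call in all 15 alternatives (-0.52 to -0.34, adjusted p 0.00367 to 0.0478), with -0.52 to -0.34 over the arrays left out. MARCKSL1 ranged from 0.24 to 0.40 over the arrays left out and kept its call in 14 of 15. MARCKS on its brightest probe set ranged from -0.22 to -0.11 over the arrays left out. It passed the threshold with a pseudocount of 1 (-0.17, adjusted p = 0.0498), with the mean over probe sets (-0.31, adjusted p = 0.00333), without _x_at and _s_at probe sets (-0.17, adjusted p = 0.0470) and without PRMT5 shRNA 2 replicate 1 (-0.21, adjusted p = 0.0367). The cause was not tested.

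With the replicate number as a block the adjusted p between hairpins was 0.00754 for BASP1, 0.0900 for MARCKS and 0.00642 for MARCKSL1, and 3705, 4559, 2435 and 2829 genes were called. Deviations of same-numbered arrays correlated at -0.09, -0.18 and -0.0045 between groups, so arrays of the same number did not vary alike. With 2 arrays per group a negative value ties differently numbered arrays, so a batch shared under other numbers was not tested. The block ended the calls of PI4KA (adjusted p = 0.0590), PIP4K2B (0.0622) and PIP5K1A (0.0508) against control and of PFN1 between hairpins (0.0508).

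Against control, HDAC2 was at -0.18 (limma, adjusted p = 0.0181) with the mean over probe sets and TLN1 at 0.015 without _x_at and _s_at probe sets. Between hairpins, without _x_at and _s_at probe sets, CAPN1 was at -0.29 and TLN1 at -0.14, and MAX was at -0.037 with the mean over probe sets. Of 589 recomputed values of 40 named genes against control, 537 kept their side of the threshold and 50 lost the call. Between hairpins 474 of 531 kept their side and 51 lost the call. A change of direction was counted only where the main or the recomputed value was called, in 2 values against control and 3 between hairpins. The readings of GAP43 and the control levels of LCK and LAMA2 lie below the array medians and have little signal over background.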
